A study of Mus musculus with 24 samples.

Results

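The 4 genes described here encode secreted proteins of the acute-phase and innate defence response. They are Saa3 (serum amyloid A3), Slpi (secretory leukocyte protease inhibitor), Lcn2 (lipocalin 2) and Ptx3 (pentraxin 3). They were taken as the rows with these symbols in a table of 24273 genes from mouse bone marrow-derived macrophages (BMDMs), of which 13901 were tested. The set was chosen by a measured value, the rise of Saa3 in libraries labelled FosKO after 0.5 h of lipopolysaccharide (LPS, a bacterial ligand of TLR4). Genotype differences at 0.5 h are therefore given for these genes as a description with no test. Of all tested genes, Saa3 had the 3rd largest rise in libraries labelled FosKO in that contrast, at 2.50 on the log2 scale. Marco, at 2.76, stood just above it, and Serpina3g, at 2.41, just below. All 4 genes passed the filter on low values in all 24 libraries.

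The libraries were made from C57BL/6 macrophages grown from bone marrow in culture. Every group carried LysM-Cre, a Cre recombinase placed at the lysozyme gene Lyz2 and so driven by a myeloid promoter. The groups labelled FosKO also carried 2 floxed alleles of Fos, which encodes an AP-1 transcription factor. The series' design gives the controls as LysM-Cre alone, while the study's text adds 1 floxed Fos allele to them. Cells were unstimulated (0 h) or received LPS at 100 ng/ml for 0.5, 1 or 2 h, and each of the 8 groups of genotype and time had 3 libraries. The comparisons ask which of these transcripts differ between the labelled genotypes before and during the response to LPS. The age of the animals and whether cultures of different times shared an animal are not given in the sources used here.

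The acute-phase response is a shift in secreted proteins during infection or injury, set in motion by the cytokines IL-1, IL-6 and TNF and carried out by NF-kB, STAT3 and C/EBP factors. The liver supplies most of these proteins to the blood, but macrophages make some of them at the site of infection, and Saa3 is a serum amyloid of macrophages and adipose tissue rather than of the liver. Lipocalin 2 withholds iron from bacteria by binding their siderophores, SLPI inhibits neutrophil elastase and other serine proteases, and pentraxin 3 is a pattern recognition molecule that binds microbes and complement C1q.

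The 4 promoters are shown because the members divided into a pair that differed between genotypes (Saa3 and Slpi) and a pair that rose strongly after LPS without a called genotype difference (Lcn2 and Ptx3). Sequences are from RefSeq on GRCm38.p6 and run from 250 bases before the annotated start to 50 bases after it. Each of the 4 genes matched 1 promoter. Capitals mark matches, on either strand, to the letters searched for 4 motifs. These were AP-1 (TGANTCA), C/EBP (TTGCNNAA), NF-kB (GGGA and CC with 4 free bases between them) and the interferon-stimulated response element (GAAA repeated after 2 free bases).
Saa3 promoter, chr7:46715627-46715926, minus strand: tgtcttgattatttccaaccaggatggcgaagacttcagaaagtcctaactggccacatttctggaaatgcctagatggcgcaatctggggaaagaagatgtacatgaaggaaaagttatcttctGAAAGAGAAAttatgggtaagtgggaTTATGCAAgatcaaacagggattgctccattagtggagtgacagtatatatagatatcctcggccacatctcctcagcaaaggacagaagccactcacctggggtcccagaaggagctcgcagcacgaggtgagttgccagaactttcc
Lcn2 promoter, chr2:32387690-32387989, minus strand: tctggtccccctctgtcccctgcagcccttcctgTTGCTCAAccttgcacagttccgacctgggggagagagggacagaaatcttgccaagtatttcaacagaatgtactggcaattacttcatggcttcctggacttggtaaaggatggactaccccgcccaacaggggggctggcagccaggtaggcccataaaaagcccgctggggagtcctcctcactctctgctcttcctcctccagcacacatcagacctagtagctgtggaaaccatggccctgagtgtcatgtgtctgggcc
Slpi promoter, chr2:164356458-164356757, minus strand: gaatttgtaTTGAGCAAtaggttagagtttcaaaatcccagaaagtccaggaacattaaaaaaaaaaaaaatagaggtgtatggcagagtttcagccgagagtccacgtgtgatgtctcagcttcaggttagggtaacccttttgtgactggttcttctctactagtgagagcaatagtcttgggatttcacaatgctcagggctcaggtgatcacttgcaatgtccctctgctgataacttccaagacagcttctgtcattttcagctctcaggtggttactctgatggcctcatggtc
Ptx3 promoter, chr3:66219637-66219936, plus strand: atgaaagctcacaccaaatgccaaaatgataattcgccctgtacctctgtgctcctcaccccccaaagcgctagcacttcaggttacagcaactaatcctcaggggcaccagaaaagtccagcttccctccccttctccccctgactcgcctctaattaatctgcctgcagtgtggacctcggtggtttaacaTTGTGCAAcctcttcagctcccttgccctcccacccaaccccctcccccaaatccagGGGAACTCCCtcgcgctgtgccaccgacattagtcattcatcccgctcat

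The C/EBP letters occurred in all 4 promoters and in 10.8% of 32851 mouse promoters of the same length. They began 99 bases before the start in Saa3, 216 in Lcn2, 241 in Slpi and 57 in Ptx3. The interferon-stimulated letters occurred only in Saa3 among the 4, at 125 bases before the start, and in 3.44% of all promoters. The NF-kB letters occurred only in Ptx3 among the 4, beginning at the first transcribed base, and in 20.73% of all promoters. The AP-1 letters, held by 7.81% of all promoters, occurred in none of the 4 windows. These are matches of letters and not mapped binding sites.

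On the same build, GENCODE placed Saa3 (ENSMUSG00000040026) at chr7:46711998-46715700 on the minus strand. Lcn2 (ENSMUSG00000026822) lay at chr2:32384633-32388252 and Slpi (ENSMUSG00000017002) at chr2:164354070-164389095, both on the minus strand. Ptx3 (ENSMUSG00000027832) lay at chr3:66219910-66225805 on the plus strand, within the span of a protein-coding gene of the other strand. All 4 were annotated as protein-coding.

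Values are log2 levels that the authors deposited already normalised, so a difference of 1 is a doubling of the deposited level. Folds are on that scale and may understate changes in RNA for low genes. The table does not give the number of reads per library, and the spread between libraries is the error given. Across genes, which are not independent replicates, Pearson's r between libraries of the same group was 0.995 to 0.999. Fos does not check the FosKO label in these data, because its mean was higher in libraries labelled FosKO before LPS (12.60 against 11.11), after 1 h (12.78 against 11.15) and after 2 h (12.80 against 9.52), and lower only after 0.5 h (12.75 against 13.52). Reads were counted per gene, and the part of Fos that Cre deletes is not given in the sources used here. Genotypes are named as labelled. Fosl1 and Fosl2, which encode other members of the Fos family, were lower in libraries labelled FosKO at all 4 times (-0.90 and -0.50 at 0 h), and Fosl2 was named after its values were seen. Lyz2, the locus that carries Cre, had a mean of 10.94 in LysM-Cre and 16.10 in libraries labelled FosKO at 0 h. Its difference was 4.89 to 5.17 over the 4 times. Every genotype comparison therefore sets apart groups that differ in Lyz2 as well as in the Fos label, and these cannot be told apart here. In 5 libraries, 2 at 0.5 h and 3 at 1 h, the 18S ribosomal RNA Rn18s-rs5 was between 16.65 and 17.00, against 18.57 to 19.39 in the other 19. Values within these low and high 18S sets are given beside the results at 0.5 and 1 h.

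All 9 macrophage markers were tested genes, and Adgre1 and Csf1r lay above 14.61 in every library. Of 13 neutrophil and granulocyte precursor markers, 12 were in the table and 6 were tested. The tested ones were Mmp8, between 7.85 and 8.37 over all libraries, Ngp, S100a8 and S100a9, which reached 5.49, 5.41 and 5.82, and Ltf and Cebpe. Of the 6 untested ones, Camp reached 2.11, Cxcr2 1.78 and Retnlg -0.19, and the highest value among Elane, Ly6g and Prtn3 was -1.73. The summed linear level of the neutrophil list at 0 h was 371 to 410 in LysM-Cre and 306 to 356 in libraries labelled FosKO, and at 2 h it was 445 to 500 and 353 to 365. In every library Mmp8 lay above all other listed neutrophil genes, so it had the largest weight in this linear sum. The sum of 7 dendritic cell markers, 4 of them tested, was 44.4 to 45.7 in LysM-Cre and 44.6 to 55.4 in libraries labelled FosKO before LPS, higher in FosKO after 0.5 h (46.0 to 47.1 against 49.8 to 67.5), overlapping after 1 h (52.7 to 64.0 against 63.2 to 73.5) and lower in FosKO after 2 h (131 to 140 against 103 to 107). The sum of 7 fibroblast and stromal markers, 4 of them tested, was 42.0 to 49.3 in LysM-Cre and 31.8 to 38.6 in libraries labelled FosKO before LPS, and 69.0 to 84.4 and 70.7 to 83.3 after 2 h. After 0.5 h it overlapped between genotypes (35.8 to 43.7 against 32.4 to 42.7), and after 1 h it was lower in FosKO (38.5 to 52.0 against 32.8 to 38.2). The part of these sums in the results was not tested.

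Saa3 encodes an amyloid A protein that associates with lipoproteins and acts on leukocytes. It was about 4-fold higher in unstimulated macrophages labelled FosKO than in LysM-Cre and was higher at every later time. At 0 h its values were 7.32, 7.39 and 7.22 in LysM-Cre and 8.94, 9.43 and 9.74 in libraries labelled FosKO. Every library labelled FosKO was above every LysM-Cre library, although the FosKO libraries themselves spread widely (SD 0.41 against 0.08, n = 3 each). The difference was 2.06 ± 0.18 (SE), or 4.18-fold, with an adjusted p of 4.06e-08 in limma. In bulk RNA, a change in the number of cells that express a gene and a change in its level per cell cannot be told apart.

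After 0.5 h of LPS, Saa3 was 7.51, 7.58 and 7.43 in LysM-Cre and 9.79, 9.66 and 10.54 in libraries labelled FosKO. The groups again did not overlap, and their difference of 2.50 is the value on which the set was selected. It was 2.22 without FosKO replicate 3. It was 2.56 in the high 18S set (2 libraries against 2) and 2.37 in the low set (1 against 1).

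At 1 h Saa3 was 8.13, 8.16 and 8.12 in LysM-Cre and 9.93, 10.30 and 10.40 in libraries labelled FosKO. The LysM-Cre libraries lay within an SD of 0.02 and the others within 0.24, with no overlap. The difference was 2.07 ± 0.18 (limma adjusted p = 3.40e-08). It was 2.22 in the high 18S set (2 FosKO libraries against 1) and 1.79 in the low set (1 against 2).

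At 2 h Saa3 reached 9.58, 9.74 and 9.65 in LysM-Cre and 10.97, 11.09 and 11.29 in libraries labelled FosKO. The groups did not overlap, and the difference was 1.46 ± 0.18, or 2.75-fold (limma adjusted p = 1.90e-06). The level of unstimulated FosKO macrophages, with a mean of 9.37, was close to the mean of 9.66 that LysM-Cre macrophages reached after 2 h of LPS. Among libraries labelled FosKO, replicate 3 had the highest Saa3 at each of the 4 times.

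**Figure D1:**
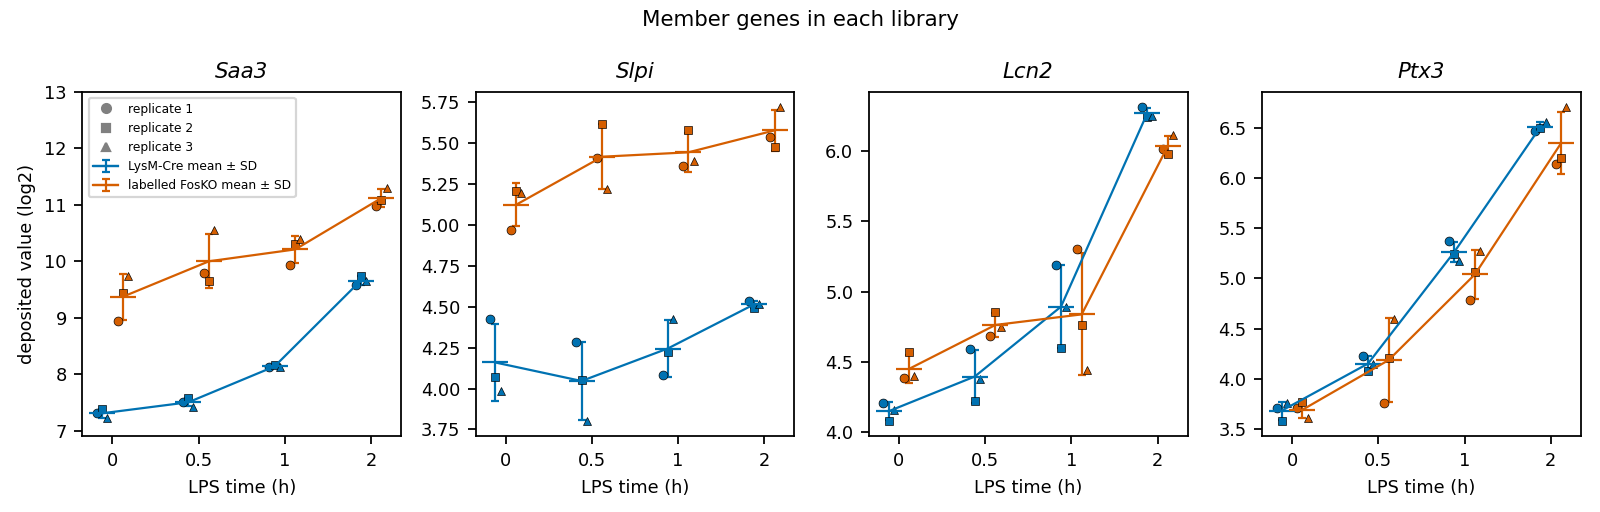
Deposited log2 level (vertical axis, a separate scale for each gene) of Saa3, Slpi, Lcn2 and Ptx3 against LPS time in h, with each library as a point, its shape giving the replicate number, and horizontal dashes and bars for the mean ± SD of 3 libraries. Saa3 and Slpi of libraries labelled FosKO (orange) lie above LysM-Cre (blue) at all 4 times, while the Ptx3 libraries of the 2 genotypes overlap at each time.

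Slpi, the antiprotease that protects tissue from neutrophil elastase, was higher in libraries labelled FosKO at each time, by 1.95-fold to 2.30-fold at 0, 1 and 2 h. At 0 h it was 4.42, 4.07 and 3.98 in LysM-Cre and 4.97, 5.21 and 5.19 in libraries labelled FosKO. The lowest FosKO library was above the highest LysM-Cre library, and the difference was 0.96 ± 0.14, or 1.95-fold (limma adjusted p = 1.23e-05). At 0.5 h the values were 4.28, 4.05 and 3.80 against 5.41, 5.62 and 5.22. This difference, from the contrast that chose the set, was 1.37, with 1.25 in the high and 1.61 in the low 18S set.

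At 1 h Slpi was 4.08, 4.22 and 4.43 in LysM-Cre and 5.36, 5.58 and 5.39 in libraries labelled FosKO. The groups did not overlap and differed by 1.20 ± 0.14 (limma adjusted p = 8.09e-07), with 1.40 in the high and 1.04 in the low 18S set. At 2 h it was 4.53, 4.49 and 4.51 against 5.54, 5.48 and 5.72. All libraries labelled FosKO were again higher, by 1.06 ± 0.14 or 2.09-fold on average (limma adjusted p = 2.20e-06). Slpi was a low-level gene, between 3.80 and 5.72 over the 24 libraries. If the deposited values are a regularised log, which they resemble, differences in Slpi, Lcn2 and Ptx3 are understated.

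Lcn2, the siderophore-binding lipocalin, did not pass the test between genotypes at any tested time. At 0 h it was 4.21, 4.08 and 4.16 in LysM-Cre and 4.39, 4.57 and 4.40 in libraries labelled FosKO. The groups did not overlap, but the difference of 0.30 was under 2 standard errors (SE 0.16, limma adjusted p = 0.158). At 0.5 h the values were 4.59, 4.22 and 4.38 against 4.69, 4.85 and 4.75, a difference of 0.37, with 0.40 in the high and 0.31 in the low 18S set. Every library labelled FosKO was the higher at this time too.

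At 1 h Lcn2 was 5.19, 4.60 and 4.89 in LysM-Cre and 5.30, 4.77 and 4.45 in libraries labelled FosKO. The groups overlapped, with a difference of -0.06 (limma adjusted p = 0.833). The sign of this difference followed the 18S set, at -0.58 in the high set (2 FosKO libraries against 1) and 0.56 in the low set (1 against 2). Without FosKO replicate 3 it was 0.14, and without LysM-Cre replicate 1 it was 0.09. At 2 h Lcn2 was 6.31, 6.24 and 6.25 against 6.02, 5.98 and 6.11. Here every library labelled FosKO was the lower, by 0.23 on average (difference -0.23, limma adjusted p = 0.264, 95% interval -0.57 to 0.10). When the 19 libraries of the high 18S set were fitted alone, Lcn2 was called higher at 0 h (0.30, limma adjusted p = 0.0409) and lower at 1 h (-0.58, limma adjusted p = 0.0159). The second of these rests on 1 LysM-Cre library, whose spread was assumed to be that of the other groups.

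Ptx3, the long pentraxin, overlapped between genotypes at all 4 times. At 0 h it was 3.71, 3.58 and 3.75 in LysM-Cre and 3.70, 3.76 and 3.60 in libraries labelled FosKO. The difference was 0.01, with a 95% interval of -0.34 to 0.36 (limma adjusted p = 0.975). At 0.5 h it was 4.23, 4.08 and 4.15 against 3.75, 4.21 and 4.59. The FosKO libraries spread more than those of LysM-Cre (SD 0.42 against 0.07), and the mean difference of 0.04 became -0.17 without FosKO replicate 3. It was 0.25 in the high and -0.39 in the low 18S set.

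At 1 h Ptx3 was 5.38, 5.24 and 5.17 in LysM-Cre and 4.78, 5.06 and 5.28 in libraries labelled FosKO. The difference was -0.22, with a 95% interval of -0.57 to 0.13 (limma adjusted p = 0.334), and it was -0.21 in the high and -0.42 in the low 18S set. At 2 h it was 6.48, 6.50 and 6.56 against 6.14, 6.21 and 6.71. Libraries 1 and 2 of FosKO were below all LysM-Cre libraries and library 3 above them, and the mean difference was -0.16, with a 95% interval of -0.51 to 0.19 (limma adjusted p = 0.470). With single libraries left out it lay between -0.34 (without FosKO replicate 3) and -0.057 (without FosKO replicate 1), and at 1 h between -0.34 and -0.094 without the same replicates. These intervals do not show that Ptx3 was alike in the 2 genotypes.

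Between genotypes, 2 of the 4 genes, Saa3 and Slpi, were called higher at 0 h, where 19.5% of all tested genes were called higher and 15.9% lower. The same 2 genes were called higher at 1 h (18% of all genes higher, 15.9% lower) and at 2 h (24.4% higher, 20.3% lower). No member was called lower at these times. At 0.5 h, the contrast that chose the set, 21.2% of all genes were called higher and 19.7% lower. The median difference of all tested genes lay within 0.01 of 0 at each time. Genes were ranked by the signed difference, from the highest in libraries labelled FosKO to the lowest. Saa3 ranked 5th of 13901 at 0 h, 15th at 1 h and 69th at 2 h, and Slpi ranked 163rd, 139th and 179th. Lcn2 ranked 1353rd at 0 h and 11714th at 2 h, and Ptx3 ranked 6730th and 10779th, from differences that limma did not call. The 4 times share no libraries, whereas the comparisons with 0 h described next share their 0 h libraries.

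**Figure D2:**
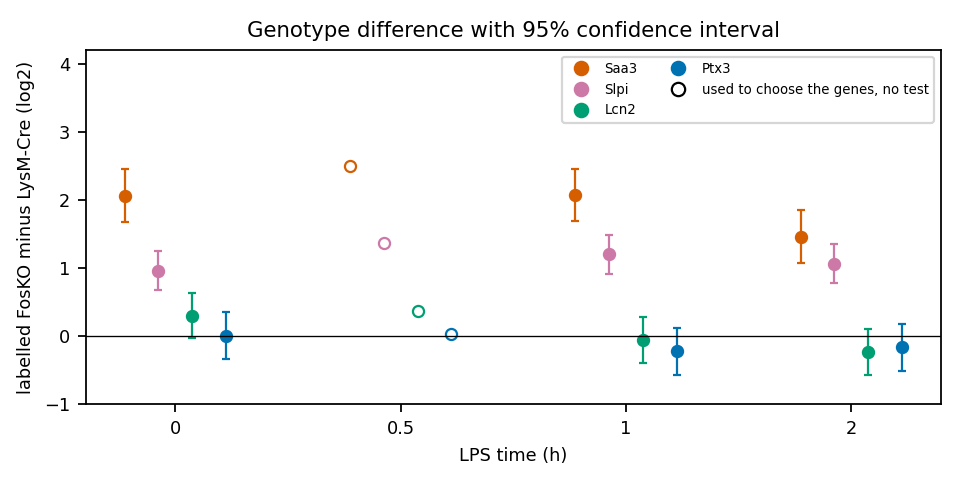
Difference in mean log2 level, libraries labelled FosKO minus LysM-Cre (vertical axis), against LPS time in h, as points with 95% confidence intervals from the limma fit. Open points at 0.5 h are from the contrast used to choose the genes and carry no interval or test. At 0, 1 and 2 h the intervals of Saa3 and Slpi lie above 0 and those of Lcn2 and Ptx3 include 0.

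LPS raised 3 of the 4 transcripts strongly in LysM-Cre macrophages by 2 h, where 30.6% of all tested genes were called higher, and raised Slpi slightly. Ptx3 rose most, by 2.83 ± 0.17 or 7.13-fold (limma adjusted p = 5.02e-12). Saa3 rose by 2.35 ± 0.18 or 5.10-fold (limma adjusted p = 5.38e-10), and Lcn2 by 2.12 ± 0.16 or 4.34-fold (limma adjusted p = 3.01e-10). Slpi rose by 0.36 ± 0.14 or 1.28-fold (limma adjusted p = 0.0297), a call that was lost without LysM-Cre replicate 2 or 3 at 0 h, or without any 1 of the 3 libraries at 2 h, with differences of 0.27 to 0.37 in those fits.

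In libraries labelled FosKO, all 4 genes were also called higher at 2 h, with 32.6% of all genes. Ptx3 rose by 2.66 ± 0.17 (limma adjusted p = 1.27e-11), Saa3 by 1.75 ± 0.18 (limma adjusted p = 4.99e-08) and Lcn2 by 1.58 ± 0.16 (limma adjusted p = 2.65e-08). Slpi rose by 0.46 ± 0.14 (limma adjusted p = 0.00654).

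Changes at 1 h were smaller, and their timing was not compared between genes by a test. At 1 h in LysM-Cre, Ptx3 was 1.58 higher than at 0 h (limma adjusted p = 1.48e-07), Saa3 0.83 (limma adjusted p = 0.00124) and Lcn2 0.74 (limma adjusted p = 0.000930), and 19.2% of all genes were called higher. In the high 18S set, with 1 LysM-Cre library at 1 h, these changes were 1.70, 0.82 and 1.04. In libraries labelled FosKO at 1 h, where 17.6% of all genes were called higher, Ptx3 was 1.35 higher (limma adjusted p = 1.56e-06) and Saa3 0.84 (limma adjusted p = 0.00122), with 1.48 and 0.98 in the high 18S set. Lcn2 did not pass the test there, with a change of 0.39 (limma adjusted p = 0.0730), 0.15 in the high 18S set and 0.58 without FosKO replicate 3 at 1 h (limma adjusted p = 0.00677). Slpi did not pass in either genotype at 1 h, with changes of 0.09 in LysM-Cre and 0.32 in libraries labelled FosKO, and of -0.077 and 0.36 in the high 18S set.

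At 0.5 h no member was called, against 5.09% of all genes called higher in LysM-Cre and 4.45% in libraries labelled FosKO. Ptx3 came nearest among the 3 tested, at 0.47 in LysM-Cre (limma adjusted p = 0.109) and 0.50 in libraries labelled FosKO (limma adjusted p = 0.0900). In FosKO the same-numbered libraries of 0 and 0.5 h deviated together, and with a replicate block within genotype the second change was called (0.50, limma adjusted p = 0.0238). The LysM-Cre libraries of 0 and 0.5 h did not overlap, and their change was called in that fit (limma adjusted p = 0.0316), with quantile normalisation (limma adjusted p = 0.0475), with only the groups compared (limma adjusted p = 0.0324) and with the 18S set as a factor (limma adjusted p = 0.0182). In the high 18S set alone these changes were 0.47 (limma adjusted p = 0.106) and 0.71 (limma adjusted p = 0.0106). Lcn2 changed by 0.25 in LysM-Cre (limma adjusted p = 0.496) and by 0.31 in libraries labelled FosKO (limma adjusted p = 0.3045). In each genotype its libraries of 0 and 0.5 h did not overlap. Saa3, untested at this time, differed from 0 h by 0.19 among LysM-Cre libraries and by 0.63 among those labelled FosKO, the second of which was 0.36 without FosKO replicate 3.

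**Figure D3:**
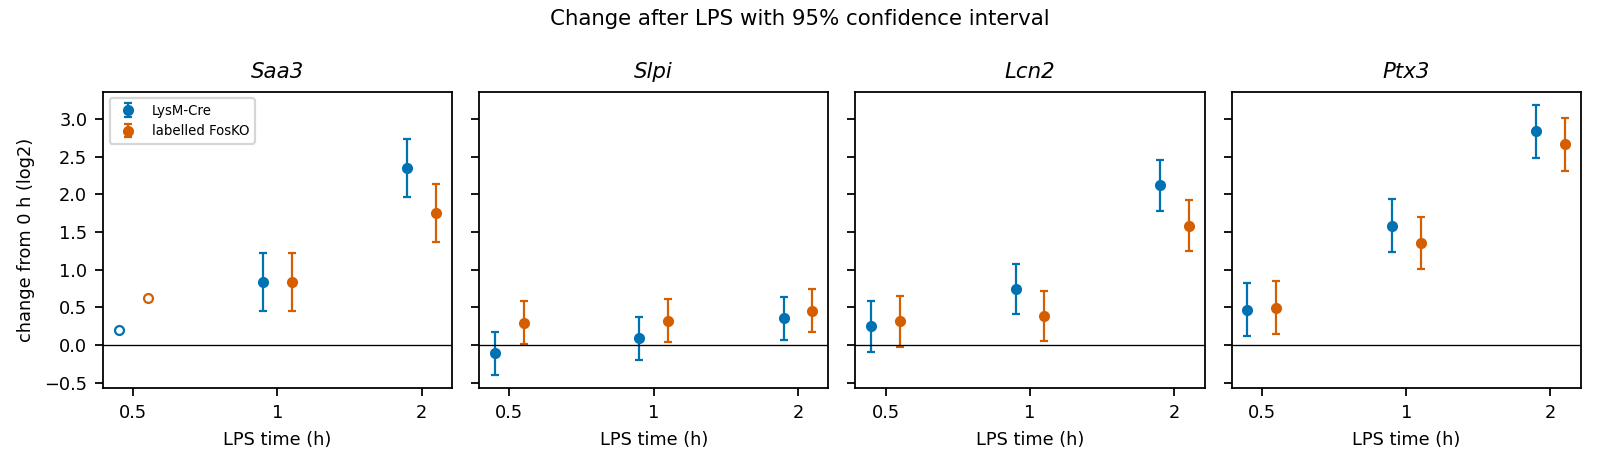
Change in log2 level from 0 h (vertical axis) at 0.5, 1 and 2 h of LPS in LysM-Cre (blue) and in libraries labelled FosKO (orange), as points with 95% confidence intervals from the limma fit. The open points of Saa3 at 0.5 h were not tested and carry no interval. Ptx3, Saa3 and Lcn2 climb to between 1.58 and 2.83 by 2 h, and Slpi stays under 0.50.

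The order of levels over time followed from these steps. From 1 to 2 h, Saa3 rose by 1.52, Lcn2 by 1.37 and Ptx3 by 1.25 in LysM-Cre, each called by limma, as were 52.3% of all genes in one direction or the other. In libraries labelled FosKO the same step was 0.91 for Saa3, 1.20 for Lcn2 and 1.31 for Ptx3, all called, with 50.7% of all genes. From 0.5 to 1 h, Ptx3 was called in LysM-Cre (1.11) and in libraries labelled FosKO (0.86), among 26.8% and 27.5% of all genes. Lcn2 was called at that step in LysM-Cre (0.50, limma adjusted p = 0.0249) and not in libraries labelled FosKO (0.08), and whether the step differed between genotypes was not tested. The call was lost without LysM-Cre replicate 2 or 3 at 0.5 h and without replicate 1 or 3 at 1 h (limma adjusted p between 0.0591 and 0.149), and in a fit of only the groups compared (limma adjusted p = 0.0654). For Slpi limma called no step between neighbouring times in either genotype, although libraries of 0 and 0.5 h in FosKO (0.29, limma adjusted p = 0.244) and of 1 and 2 h in LysM-Cre (0.27, limma adjusted p = 0.105) did not overlap.

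Whether LPS changed a transcript differently in the 2 genotypes was tested as the difference between changes, and no member was called at 1 or 2 h, nor were the 3 members tested at 0.5 h, where Saa3 was not tested. Over all genes, 0.115% were called at 0.5 h, 1.22% at 1 h and 15% at 2 h. At 2 h, the change of Saa3 in libraries labelled FosKO minus that in LysM-Cre was -0.60, with a 95% interval of -1.15 to -0.06 (limma adjusted p = 0.138). It was called without FosKO replicate 1 at 0 h (-0.82, limma adjusted p = 0.0269), with quantile normalisation (-0.83, limma adjusted p = 0.0351) and with a replicate block within genotype (-0.60, limma adjusted p = 0.0106). That of Lcn2 was -0.53, with an interval of -1.01 to -0.06 (limma adjusted p = 0.130), and it was called with only the groups compared (limma adjusted p = 0.0129) and in the high 18S set alone (limma adjusted p = 0.0288). Slpi, at 0.10, and Ptx3, at -0.17, had intervals that included 0 (-0.30 to 0.50 and -0.66 to 0.32).

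Levels can be compared between genes only per length, and the deposited log2 values were therefore divided on the linear scale by the length of each gene's principal GENCODE transcript (555 bases for Saa3, 876 for Slpi, 915 for Lcn2 and 1898 for Ptx3). Per kilobase, Saa3 was the most abundant in all 8 groups, with a mean log2 level of 8.16 ± 0.08 (SD, n = 3) in LysM-Cre at 0 h and 11.97 ± 0.16 in libraries labelled FosKO at 2 h. In LysM-Cre at 0 h, Slpi (4.35 ± 0.23) and Lcn2 (4.28 ± 0.06) lay within their spread of each other and above Ptx3 (2.76 ± 0.09). At 2 h in LysM-Cre the order below Saa3 was Lcn2 (6.40 ± 0.04), Ptx3 (5.59 ± 0.05) and Slpi (4.71 ± 0.02). In libraries labelled FosKO at 2 h, Lcn2 (6.16 ± 0.07) lay above Slpi (5.77 ± 0.13) and Ptx3 (5.43 ± 0.31), whose ranges of mean ± SD overlapped.

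Over the 24 libraries, which share the same 8 groups, Pearson's r was 0.88 between Saa3 and Slpi and 0.91 between Lcn2 and Ptx3, and between 0.20 and 0.62 for the other 4 pairs. It follows the group means: for deviations from those means r was 0.010 and -0.083 for the same 2 pairs, and highest, at 0.55, between Saa3 and Ptx3. Among 10050 protein-coding genes with a mean linear level of at least 50 (10051 for the other 3 members, which lie under that level themselves), those most like Saa3 were Slc3a2 (an amino acid transporter chain, r = 0.99), Cybb (the catalytic subunit of the phagocyte NADPH oxidase, r = 0.99) and Slc15a3 (a lysosomal peptide transporter, r = 0.99). Those most like Slpi were Ctsz, a lysosomal cathepsin (r = 0.97), Atp6v0d1, a subunit of the vacuolar proton pump (r = 0.96), and Hk3, a hexokinase (r = 0.96). The genes most like Lcn2 were Polr2c (r = 0.97), Sema4c (r = 0.96) and Lrrfip2 (r = 0.96). Those most like Ptx3 were Dcun1d5, Pip5k1a and Rnd1 (each r = 0.98). These correlations describe 8 group levels more than 24 independent points and carry no test.

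Other acute-phase genes were mostly higher in libraries labelled FosKO, as Saa3 was. Of 35 listed, 9 were tested, and 6 of these 9 were called higher at 0 h, with a median difference of 1.03 against 0.00 over all tested genes. Of all tested genes, 19.5% were called higher and 15.9% lower before LPS, 18% and 15.9% after 1 h, and 24.4% and 20.3% after 2 h, which is the background for this list and the next ones. After 1 h the count called higher was again 6, with a median of 0.97, and after 2 h it was 6, with a median of 1.16. C3, the central complement component, was 12.69 ± 0.15 in LysM-Cre and 14.55 ± 0.37 in libraries labelled FosKO at 0 h (difference 1.86, limma adjusted p = 1.54e-08). Hp, which encodes the haemoglobin-binding protein haptoglobin, was 4.35 ± 0.14 against 6.09 ± 0.25 (difference 1.74, limma adjusted p = 1.86e-08). Serpina3g, a serine protease inhibitor, was higher by 1.99 before LPS and by 1.88 after 2 h. Its relative Serpina3f was higher by 1.03 and 1.66, and Cp, the ferroxidase ceruloplasmin, by 1.51 and 1.55, and limma called all 3 genes at every time. The Serpina3 genes are close copies, so their values are uncertain where reads matched more than 1 of them.

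Other secreted defence proteins did not share a direction. Of 38 listed, 21 were tested, and 6 were called higher and 10 lower before LPS. The counts were 8 and 9 after 1 h and 8 and 8 after 2 h. Beside Lyz2, Cst7, a cystatin that inhibits lysosomal proteases, was higher by 1.07 before LPS and by 0.73 after 2 h. Ngp, S100a9 and Ltf, which also belong to the neutrophil marker list above, were lower, at low levels. Ngp, a neutrophil granule protein, was 4.63 ± 0.34 in LysM-Cre and 3.67 ± 0.20 in libraries labelled FosKO at 0 h (difference -0.96, limma adjusted p = 0.000244). S100a9, a calprotectin subunit, gave -0.81 before LPS and -1.07 after 2 h, and Ltf, the iron-binding lactotransferrin, gave -0.65 and -1.18. Timp1, an inhibitor of matrix metalloproteinases, gave -0.68 and -1.26, and all 4 of these falls were called at every time.

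Among 10 tested genes of 13 listed as receptors or uptake routes of serum amyloid A and lipocalin 2, limma called 3 higher and 3 lower before LPS (19.5% and 15.9% of all tested genes), and 6 and 1 after 2 h (24.4% and 20.3%). Fpr2, a formyl peptide receptor that binds serum amyloid A, was 5.62 ± 0.20 in LysM-Cre and 6.90 ± 0.38 in libraries labelled FosKO at 0 h (difference 1.27, limma adjusted p = 3.01e-05). At 2 h it was 8.05 ± 0.20 against 9.31 ± 0.19. Fpr1, which senses bacterial formyl peptides, was higher by 0.91 before LPS and by 1.22 after 2 h. Cd36, a scavenger receptor, was lower at every time, with differences of -0.65 before LPS and -0.56 after 2 h.

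Of 13 tested genes among 20 listed as pentraxins and proteins that bind pentraxin 3, limma called 5 higher and 3 lower before LPS, and 7 and 2 after 2 h. Unlike Ptx3, Nptx1 (neuronal pentraxin 1) was lower in libraries labelled FosKO, at 6.48 ± 0.09 against 9.08 ± 0.17 at 0 h (difference -2.60, limma adjusted p = 1.16e-15), and so was the membrane-bound relative Nptxr (-1.12 at 0 h). The Fc gamma receptors Fcgr2b (0.98 at 0 h) and Fcgr4 (0.84) were higher at all 4 times. Of 11 listed targets and partners of SLPI, 3 were tested. Grn, the precursor of granulins that SLPI protects from cleavage, was higher by 0.28 before LPS and by 0.36 after 2 h. Anxa2 was lower at every time (-0.31 at 0 h), and Plscr1 was higher at 1 h (0.40) and 2 h (0.63), with 0.04 at 0 h.

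Of 16 tested genes among 21 for cellular iron handling, 6 were called higher and 5 lower before LPS, with 7 and 5 after 1 h and 6 and 4 after 2 h. Slc40a1, the iron exporter ferroportin, was higher by 0.63 before LPS and by 0.94 after 2 h, next to Cp and Ltf above. All 32 listed cytokines and transcription factors known to act on acute-phase genes were tested, and 15 were called higher and 6 lower before LPS. After 1 h the counts were 12 and 5, and after 2 h they were 16 and 8. The share called lower was near that of all tested genes before LPS and after 1 h (15.9% at each time). The share called higher was above that of all tested genes, which was 19.5% before LPS, 18% after 1 h and 24.4% after 2 h. The list was not tested as a set. Il6, a main inducer of the acute phase, was 4.83 ± 0.01 in LysM-Cre and 4.94 ± 0.16 in libraries labelled FosKO at 0 h, where it was not called (difference 0.12, limma adjusted p = 0.482). At 2 h it was 9.72 ± 0.17 against 11.13 ± 0.19 and was called higher (difference 1.41). Fosl1, another AP-1 member, was lower at all 4 times, with differences of -0.90 before LPS and -1.64 after 1 h. At 0.5 h the counts of these 7 lists differed from those at 0 h by no more than 5 genes in either direction.

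**Figure D4:**
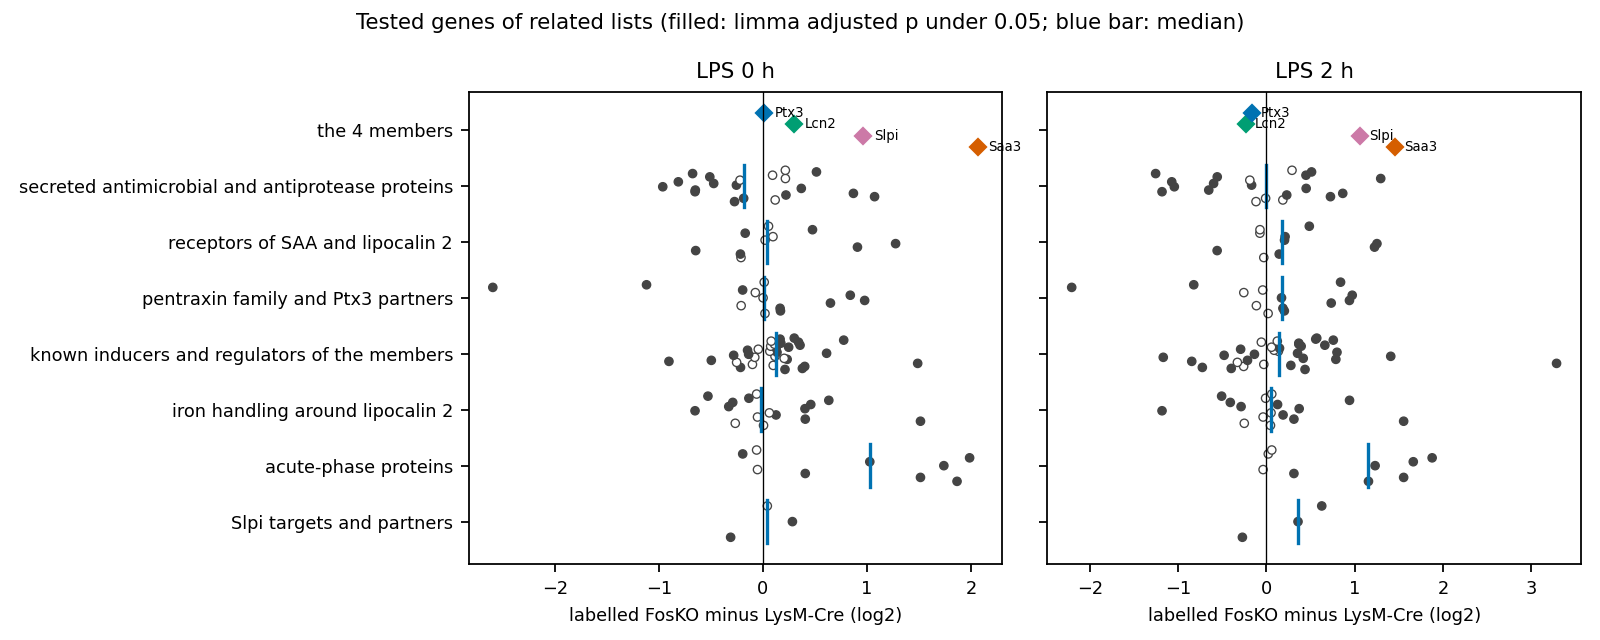
Difference in log2 level, libraries labelled FosKO minus LysM-Cre (horizontal axis), of each tested gene in 7 related gene lists (rows) at 0 h and 2 h, with filled points called by limma, blue bars at each list's median and coloured diamonds for the members. Lyz2 is left off the axes for its size but enters its list's median. The acute-phase list has its median at 1.03 and 1.16, and the medians of the other 6 lists lie between -0.19 and 0.36.

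Genes within 100 kb of Saa3, Lcn2 and Slpi were compared between genotypes as well. Of 4 protein-coding neighbours of Saa3 in the table, Gtf2h1, a subunit of the TFIIH complex, was called higher (0.30 at 0 h, 0.14 at 2 h), and Hps5, Saal1 and Sergef differed by -0.18 to 0.16 without a call at 0 or 2 h. Near Lcn2, the mitochondrial carrier Slc25a25 (0.39) and Ciz1 (0.16) were called higher at 0 h, and Dnm1, which encodes a dynamin (-0.41), and 1110008P14Rik (-0.19) lower. At 2 h Slc25a25 (0.37) and Ciz1 (0.085) were again called higher. Dnm1 (-0.30, limma adjusted p = 0.0575) and 1110008P14Rik (-0.078, limma adjusted p = 0.354) were not called at 2 h. Golga2, Naif1, Ptges2 and Swi5, also tested near Lcn2, were called at neither time. Near Slpi, Sdc4, the heparan sulfate proteoglycan syndecan 4, rose by 3.12 after 2 h of LPS in LysM-Cre and differed by -0.11 between genotypes at 0 h and 0.036 at 2 h. The other 3 tested neighbours of Slpi were higher in mean in libraries labelled FosKO before LPS and after 2 h, namely Dbndd2 (0.24 and 0.25), Sys1 (0.18 and 0.17) and Gm20458 (0.16 and 0.33), and limma called none of the 4 at either time. No other gene in the table lay within 100 kb of Ptx3. These neighbours were described after their values were seen.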

How the data were processed

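The 4 members and all gene lists were chosen with earlier results of these data known. Strand-specific TruSeq libraries were read from a single end on a HiSeq 2500. The authors aligned and counted reads with STAR 2.5.2a and RSEM 1.2.31 on mm10 and used DESeq2, whose version is 1.16.1 in the submitters' processing notes and differs in the methods. The authors deposited normalised log2 values. The transformation is not given in the sources used here, and the values resemble a regularised log. The methods give a typical yield of reads but not that of each library, so the depth per library is unknown and no counting interval was computed.

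Genes with a linear level (2 to the power of the value) of at least 5 in at least 3 libraries were tested with limma 3.58.1 in R 4.3.3, on the log2 values as deposited. The fit had 8 group means, a variance trend and 16 residual degrees of freedom. Each of 17 comparisons was adjusted by Benjamini-Hochberg over 13901 genes and called at an adjusted p under 0.05. An exact permutation test of 3 libraries against 3 cannot give p below 0.1 and was not used. The methods call the libraries biological replicates without naming animals, so the p-values measure the spread between these libraries. A symbol with more than 1 row was taken as the row with the higher mean.

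Named genes were the members, Fos and Lyz2, and from each list the 3 tested genes with the largest mean absolute genotype difference over the 4 times, plus any called at all 4 times with the same sign and at least 2-fold at one of them. The 3 genes most like each member were chosen by Pearson's r over the 24 libraries. Alternatives were another scaling, filter, pseudocount, variance model, replicate block, 18S set and each library left out.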

Additional observations from a re-analysis of the deposited data

How the results depend on the processing

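Saa3 at 0, 1 and 2 h and Slpi at 0, 1 and 2 h stayed called higher in libraries labelled FosKO under every alternative that was run, as did Ptx3, Saa3 and Lcn2 after 2 h of LPS in each genotype. With each library left out in turn, the lowest and highest differences of Saa3 were 1.88 and 2.28 at 0 h and 1.37 and 1.53 at 2 h, and those of Slpi were 0.88 and 1.10 at 0 h. No scaling moved the median of all genes by more than 0.1. For the changes below, the cause was not tested. Depth limits the low genes most, but reads per library are unknown.

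Without a filter on low values, the 2 h change of Slpi in LysM-Cre was 0.36 (limma adjusted p = 0.0508). With quantile normalisation, the 0.5 h change of Ptx3 was called in LysM-Cre (0.49) and FosKO (0.52), as were the 1 h changes in FosKO of Lcn2 (0.45) and Slpi (0.41), and the difference in response of Saa3 was -0.12 at 1 h and, called, -0.83 at 2 h. With only the groups compared, the 0.5 h change of Ptx3 in LysM-Cre was called at 0.47 (limma adjusted p = 0.0324), the difference in response of Lcn2 at 2 h at -0.53 (limma adjusted p = 0.0129), and the step of Lcn2 in LysM-Cre from 0.5 to 1 h was not (0.50, limma adjusted p = 0.0654). With the 18S set as a factor, the 0.5 h change of Ptx3 was called in LysM-Cre (0.57) and FosKO (0.60), and the 1 h difference in response of Saa3 was -0.060. In the high 18S set alone, Lcn2 was called between genotypes at 0 h (0.30) and, with 1 LysM-Cre library, at 1 h (-0.58), as was its 2 h difference in response (-0.53), and its genotype difference at 0.5 h, a description, was 0.40. The 0.5 h change of Ptx3 in FosKO was called there (0.71). The change of Slpi in LysM-Cre was there 0.0081 at 0.5 h and -0.077 at 1 h, its step from 0.5 to 1 h was -0.085, and that of Lcn2 in FosKO was -0.20.

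Deviations of same-numbered libraries of a genotype correlated at -0.25 to 0.71, over 0.1 in 12 of 36 pairs. All 3 pairs were over 0.1 in 2 cases only. These were FosKO at 0 and 0.5 h (0.13 to 0.27) and FosKO at 0.5 and 1 h (0.33 to 0.71). In the second case both libraries numbered 1, with the 0.71, were of the low 18S set. Replicates 2 and 3, of the high set, correlated at 0.33 to 0.38 with their own number and at 0.30 with the other. LysM-Cre replicate 3 at 0.5 h and FosKO replicate 1 at 1 h, both of the low set, correlated at 0.68. Pairing by number was not told apart from the 18S set there. The block within genotype was not limited to these times and also covered LysM-Cre and 2 h. That 22 of 24 libraries correlated best with their own number is a hint from the data, not the design. A replicate block changed no call of a member, and Saa3 kept 2.06 at 0 h. A replicate block within genotype added the calls of Ptx3 at 0.5 h in LysM-Cre (0.47) and FosKO (0.50) and of the 2 h difference in response of Saa3 (-0.60, limma adjusted p = 0.0106).

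With single libraries left out, the genotype difference of Ptx3 ranged from -0.041 to 0.052 before LPS and from -0.17 to 0.25 after 0.5 h. That of Saa3 after 0.5 h ranged from 2.22 to 2.67, and that of Lcn2 ranged from 0.28 to 0.46 after 0.5 h and from -0.29 to 0.14 after 1 h. Changes of Slpi in LysM-Cre lay between -0.23 and 0.019 after 0.5 h, between -0.0064 and 0.22 after 1 h, and between 0.27 and 0.49 after 2 h. In FosKO, the 0.5 h change ranged from 0.36 to 0.81 for Saa3 and from 0.29 to 0.71 for Ptx3, and the 1 h change of Lcn2 from 0.15 to 0.58. Differences in response were 0.16 to 0.62 for Saa3, -0.023 to 0.16 for Lcn2 and -0.18 to 0.24 for Ptx3 at 0.5 h. At 1 h the difference in response of Saa3 ranged from -0.21 to 0.19. At 2 h the differences in response were -0.82 to -0.42 for Saa3, -0.032 to 0.19 for Slpi and -0.35 to -0.065 for Ptx3. Steps from 0.5 to 1 h ranged in LysM-Cre from 0.35 to 0.64 for Lcn2, and in FosKO from 0.04 to 0.48 for Saa3, from -0.16 to 0.27 for Lcn2 and from -0.070 to 0.13 for Slpi.

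Counts of called genes moved by over 1.5 times in these cases. The difference in response called 16 genes at 0.5 h, with 25 under quantile normalisation and under the block within genotype, 6 with only the groups compared, 9 in the high 18S set, and 10 and 9 without LysM-Cre replicate 2 and 3 at 0.5 h. At 1 h it called 169, with 112 with only the groups compared and 93 in the high 18S set. The 0.5 h change in FosKO called 823 genes, against 301 with only the groups compared and 542 without FosKO replicate 3. The high 18S set alone called 2994 genes in place of 4708 between genotypes at 1 h, 3009 in place of 4970 for LPS at 1 h in LysM-Cre and 2010 in place of 3725 for its step from 0.5 to 1 h. With only the groups compared, that step in FosKO called 2471 genes in place of 3819.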
